A study of Drosophila melanogaster with 16 samples.

Results

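The comparison set 4 libraries of Drosophila melanogaster embryos whose genotype is given as ORE50/ORC4, with both of these Lola-I mutant alleles named, against 4 libraries of embryos given as the Lola-I mutant ORC4, all aged 14 to 17 h. These 8 libraries, taken by their titles, were 8 of the 16 in the series. The other 8 are OregonR wild type, 5 libraries at 14 to 17 h and 3 at 2 to 4 h. Each library is polyadenylated RNA of whole dechorionated embryos. The ORC4 allele is common to both mutant groups, so the groups differ by the label in whether ORE50 is present. The labels do not give the zygosity of the ORC4 group, how mutant embryos were picked, what lesion either allele carries, or whether replicates came from separate collections. The p-values below therefore measure the spread between these libraries, which may in part be technical.

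The lola locus encodes many isoforms of a transcription factor that share an amino-terminal BTB dimerization domain and differ in their zinc fingers, and Lola-I is one of them. The series title names Lola-I as a pioneer factor of promoters that sets up paused RNA polymerase II. The fly egg is loaded by the mother with messenger RNA, most of which is degraded when the embryo starts its own transcription. Late in embryogenesis most cells leave the division cycle, muscles, nerves, gut and tracheae differentiate, and the epidermis secretes the larval cuticle.

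Depth and genotype coincided in this comparison. The ORE50/ORC4 libraries held 9025882 to 13226262 estimated counts and the ORC4 libraries 27298377 to 28832013, so that 3 counts, the least taken as detection, corresponded to 0.227 to 0.332 CPM (counts scaled to the library total) in ORE50/ORC4 and 0.104 to 0.110 CPM in ORC4 (counting error only). Late wild type held libraries of both depth classes: replicates 1, 2 and 3 were deep and replicates 5 and 6 shallow. Between those 2 classes of late wild type 133 of 11431 genes (1.16%) differed. The muscle myosin gene Mhc was at 569.6 to 833 TPM in ORE50/ORC4 and 783 to 905 TPM in ORC4. Both were far above wild type at 2 to 4 h, at 1.41 to 5.26 TPM. Late wild type had 857 to 930 TPM, above every ORE50/ORC4 library and overlapping ORC4. TPM is an abundance scaled for depth and for the listed length, which here was the whole gene span with introns. Mitochondrially encoded genes took 8.51% to 11.3% of the counts in ORE50/ORC4 and 6.93% to 8.19% in ORC4.

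The mutated gene itself was lower in ORE50/ORC4. The lola gene (FBgn0283521, chr2R:10481894-10543291, minus strand, BDGP6/dm6) had 28.6, 36.8, 26.1 and 28.3 TPM in ORE50/ORC4 replicates 1 to 4, against 44.8, 61.3, 39.2 and 53.7 TPM in ORC4. Every ORE50/ORC4 library lay below every ORC4 library (log2 fold change -0.59, SE 0.13, edgeR adjusted p = 0.00360). The value sums all isoforms, so Lola-I was not measured apart, and 6 annotated genes overlap the span. One of them, pre-lola-G, an annotated gene at the 3′ end of lola (FBgn0264817, chr2R:10481894-10485252, minus strand), had 0 TPM in all 4 ORE50/ORC4 libraries and 22.5, 49.5, 9.33 and 23.3 TPM in ORC4. Reads of lola and pre-lola-G cannot be told apart where they overlap. The difference in pre-lola-G (edgeR adjusted p = 0.0123) is therefore uncertain, and no fold is given. Late wild type had 0, 15.1, 0, 12 and 12.2 TPM and early wild type 728, 767 and 753 TPM of pre-lola-G.

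Over all genes, 1992 of 11431 tested were lower in ORE50/ORC4 than in ORC4 (17.4%) and 2271 were higher (19.9%), or 37.3% in either direction, by edgeR's quasi-likelihood test at an adjusted p under 0.05. The lower genes moved further: 797 were lower by at least 2-fold (6.97%), against 184 higher by at least 2-fold (1.61%). Every ORE50/ORC4 library lay below every ORC4 library for 1910 genes (16.7%) and above for 1629 (14.3%). When the fit also held depth class, which late wild type alone spans, 1806 genes were lower (15.8%) and 1707 higher (14.9%). On the deposited TPM scale, log2(TPM + 1) in limma, the split was 2673 lower and 846 higher, with the median log2 fold change of all genes at -0.09 in place of 0.03, so small changes are read against that shift. In whole embryos, fewer cells of a type and less RNA per cell cannot be told apart.

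Genes of the early embryo made up 51.8% of the genes lower in ORE50/ORC4, against 28.1% of the genes tested. Genes were put into stage classes with wild type only: early genes are at least 2-fold lower at 14 to 17 h than at 2 to 4 h, late genes at least 2-fold higher, steady genes neither. Of 11636 genes tested in wild type, 31% were early and 40.4% late. No library of the mutant contrast enters those classes. Of 3208 early genes tested, 1032 were lower in ORE50/ORC4 (32.2%) and 390 higher (12.2%). Of 3304 steady genes 430 were lower (13%) and 935 higher (28.3%), and of 4682 late genes 519 were lower (11.1%) and 913 higher (19.5%). Early genes also made up 62% of the genes lower by at least 2-fold. Their majority among all lower genes was not kept in every setting: they were 1205 of 2673 on log2(TPM + 1) and 959 of 2165 without ORC4 replicate 4. Late genes made up 56.5% of the 184 genes higher by at least 2-fold, but more late genes were lower by that much (211) than higher (104). The class medians of the log2 fold change were small, at -0.09 for early, 0.12 for steady and 0.02 for late genes. On log2(TPM + 1) early genes were 1205 lower and 124 higher, while the split of the other classes turned round, to 610 lower and 299 higher for steady genes and 833 lower and 390 higher for late genes. The plot of the mutant difference against the wild-type stage difference shows every gene in both fits.

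The share of all counts taken by early genes was 12.5% ± 0.575 in ORE50/ORC4 and 15.9% ± 1.68 in ORC4 (SD, n = 4 each), and 13.7% ± 0.905 in late wild type (n = 5). The ORE50/ORC4 libraries, at 11.8% to 13.2%, did not overlap the ORC4 libraries, at 13.9% to 17.8%, and both were far below early wild type at 50.8% to 52.3%. Late genes took 44.3% ± 1.15 of the counts in ORE50/ORC4 and 43.9% ± 2.66 in ORC4. The count of late genes that were lower rests on few libraries: it was 314 without ORE50/ORC4 replicate 1, 316 without ORC4 replicate 1 and 319 without ORC4 replicate 3. The count of early genes higher was 257 without ORE50/ORC4 replicate 1.

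**Figure D1:**
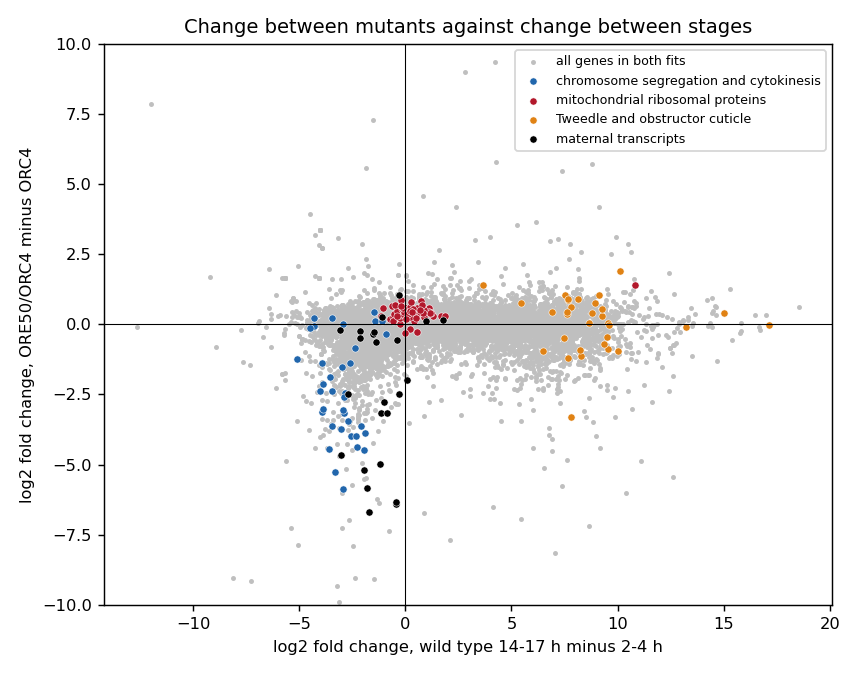
Each point is a gene, with its log2 fold change in wild type between 14 to 17 h and 2 to 4 h on the horizontal axis and its log2 fold change between ORE50/ORC4 and ORC4 on the vertical axis; 11194 genes were in both fits and 3 lie outside the vertical range. The points that reach far below 0 sit mostly at the left, where early genes are, and include maternal transcripts (black) and genes of chromosome segregation (blue), while mitochondrial ribosomal protein genes (red) sit just above 0 near the middle.

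Most listed messenger RNAs that the mother puts into the egg were lower in ORE50/ORC4. Of 24 such genes tested, 16 were lower in ORE50/ORC4 and 2 higher, with a median log2 fold change of -2.23 against 0.03 over all genes. By the stage classes 14 of the 24 are early genes and 1 is a late gene, so not all of this list is early. Summed over the list, ORE50/ORC4 held 244 ± 45.6 TPM, ORC4 1138 ± 321 TPM (SD, n = 4 each), late wild type 917 ± 348 TPM (n = 5) and early wild type 3135 ± 195 TPM (n = 3). This list, and those of early zygotic, chromosome segregation and piRNA genes, were put together after values had been seen, so their counts describe these genes and are no independent evidence. The plot of maternal genes by library shows the separation.

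The anterior determinant bcd (FBgn0000166, chr3R:6755842-6759466, minus strand), made in the ovary and localized at the front of the egg, had 0, 1.48, 0.0651 and 0 TPM in ORE50/ORC4 replicates 1 to 4. ORC4 replicates 1 to 4 had 32.7, 61.2, 25.5 and 31.7 TPM. All ORE50/ORC4 libraries but replicate 2 were at or near 0 and that replicate was above them, while every ORC4 library was far higher, with replicate 2 the highest (log2 fold change -6.40, SE 0.86, edgeR adjusted p = 0.000192). Early wild type had 34.3, 25.6 and 32.7 TPM of bcd. Without ORE50/ORC4 replicate 2 its log2 fold change was -10.53. The depth classes of late wild type differed, with 9.10, 14.7 and 12.2 TPM in the deep replicates and 40.4 and 38 TPM in the shallow ones.

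Other maternal genes were separated between the groups in the same way. The gene swa, needed to place bcd RNA, had 0.246, 1.18, 0.319 and 0.187 TPM in ORE50/ORC4, against 36.8, 58, 28.8 and 52.3 TPM in ORC4 (log2 fold change -6.32, SE 0.64, edgeR adjusted p = 4.34e-05). The receptor gene tor, which specifies both ends of the embryo, had 0.452, 0.879, 0.234 and 0.668 TPM in ORE50/ORC4, against 19.8, 29.1, 11.6 and 19.3 TPM in ORC4 (log2 fold change -4.99, SE 0.56, edgeR adjusted p = 7.66e-05). The groups did not overlap for either gene, and in both ORC4 replicate 2 was highest and replicate 3 lowest. The gene plu (FBgn0003114, chr2R:20262958-20263684, minus strand), a subunit of the PNG kinase that drives the first mitoses, had 0.325, 0.333, 0.421 and 0 TPM in ORE50/ORC4, against 27.6, 52.3, 19.7 and 33.5 TPM in ORC4 (edgeR adjusted p = 0.000118), at least 28.2-fold lower with ORE50/ORC4 set to 3 counts per library. The poly(A) polymerase gene wisp, which activates maternal RNAs at egg activation, had 0.0594, 2.35, 0.154 and 0.0338 TPM in ORE50/ORC4, against 34.5, 60.1, 28.9 and 40.7 TPM in ORC4 (log2 fold change -5.82, SE 0.75, edgeR adjusted p = 0.000143). ORE50/ORC4 replicate 2 was the highest of its group for wisp, as for bcd and swa, and still far below the lowest ORC4 library.

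The RNA of smg, whose protein binds maternal transcripts and directs their decay, was itself lower at 12, 19.8, 12.6 and 13.5 TPM in ORE50/ORC4, against 122, 198, 97 and 152 TPM in ORC4 (log2 fold change -3.16, SE 0.36, edgeR adjusted p = 8.80e-05). It was at 64.3, 85.8 and 67.1 TPM in deep late wild type, 168 and 166 TPM in shallow late wild type and 217, 177 and 211 TPM in early wild type. Not every maternal RNA differed. For gnu, a partner of plu in the PNG kinase, the libraries overlapped, with 0.439, 1.35, 0.568 and 0.499 TPM in ORE50/ORC4 and 1.39, 0.978, 0.307 and 1.10 TPM in ORC4 (log2 fold change -0.25, SE 0.87, edgeR adjusted p = 0.852). The RNA of osk, which organizes the germ plasm, was low in both, 0.0559, 0.115, 0.289 and 0.318 TPM in ORE50/ORC4 and 1.06, 1.97, 1.22 and 1.46 TPM in ORC4, and its call (adjusted p = 0.0438) was lost with depth class as a covariate (0.315) and without any 1 of the 8 libraries. The exceptions in direction were exu and grau, with log2 fold changes of 1.06 and 0.28, both lost with the depth covariate (adjusted p = 0.0755 and 0.113). The genes smg, gnu and osk were chosen after their values were seen.

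**Figure D2:**
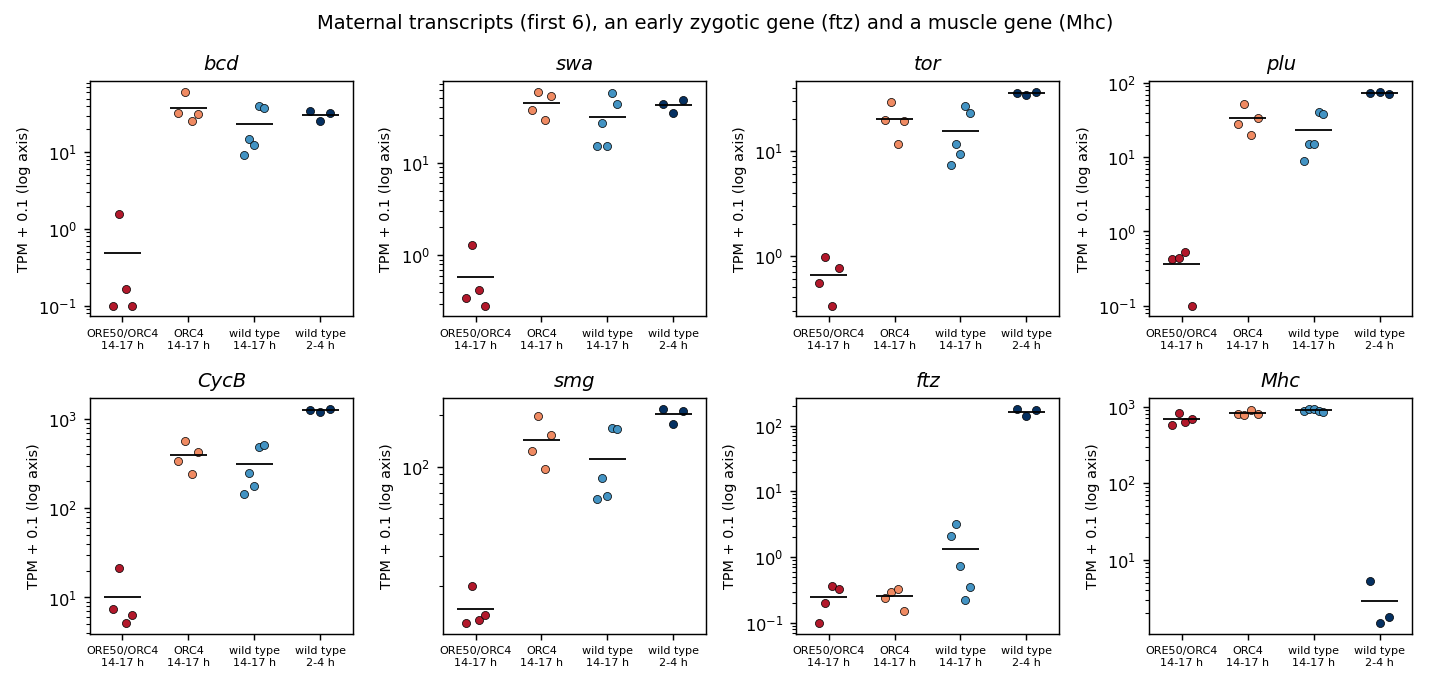
TPM + 0.1 per library on log axes for 6 maternal genes, for the early zygotic gene ftz and for the muscle gene Mhc, in ORE50/ORC4 (left), ORC4, late wild type and early wild type; short lines are group means. For the maternal genes every ORE50/ORC4 library lies below every ORC4 library, whereas ftz is low and Mhc high in both mutants.

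For transcripts made by the early embryo itself, 2 lists are given, to be read against 17.4% lower and 19.9% higher over all genes. Of 15 genes tested from a list of early zygotic genes, 1 was lower (6.67%) and 3 were higher (20%) in ORE50/ORC4, the higher share being near that of all genes. Their median log2 fold change of 0.11 turned to -0.04 on log2(TPM + 1). Of 6 genes tested from a list of zygotic activation and cellularization, 3 were lower (50%) and 0 higher, with a median of -0.49. The lower ones included slam (-4.89) and Nin (-0.69). The pair-rule gene ftz, with 179, 138 and 173 TPM in early wild type, had 0, 0.102, 0.258 and 0.227 TPM in ORE50/ORC4 and 0.136, 0.197, 0.232 and 0.0499 TPM in ORC4. Both mutants were near 0 and overlapped, and too few counts were present for a test. Of the maternally supplied patterning genes, hb, a gap gene with maternal and zygotic RNA, was at 1.32 to 2.38 TPM in ORE50/ORC4 and 3.69 to 6.35 TPM in ORC4 (log2 fold change -1.39, adjusted p = 0.000889). The Toll receptor gene Tl of the dorsal-ventral axis was at 3.55 to 6.4 TPM in ORE50/ORC4 and 12.4 to 23.8 TPM in ORC4 (log2 fold change -1.77, adjusted p = 0.000281). The summed TPM of the maternal list, though not each of its genes, was separated by genotype in all 8 libraries. The part of maternal RNA in the other early-gene differences was not tested.

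Genes of mitosis formed a large group of lower genes. Of 36 genes for chromosome segregation and cytokinesis, all tested, 28 were lower in ORE50/ORC4 and 1 was higher, with a median log2 fold change of -2.41, and 35 of the 36 are early genes. Summed, they held 253 ± 49.5 TPM in ORE50/ORC4 and 1451 ± 471 TPM in ORC4 (SD, n = 4 each). The mitotic cyclin gene CycB (FBgn0000405, chr2R:22803521-22806948, minus strand) had 7.29, 21.3, 5.09 and 6.29 TPM in ORE50/ORC4, against 338, 564, 240.5 and 430.2 TPM in ORC4 (log2 fold change -5.18, SE 0.56, edgeR adjusted p = 6.83e-05). All ORE50/ORC4 libraries were far below all ORC4 libraries, with ORE50/ORC4 replicate 2 the highest of its group. CycB3, a cyclin of anaphase, had 4.54, 12.2, 3.48 and 3.06 TPM in ORE50/ORC4, against 146, 240.2, 97.8 and 159.6 TPM in ORC4 (log2 fold change -4.66, SE 0.49, edgeR adjusted p = 5.41e-05). Late wild type had 146, 246, 179.5, 491 and 517 TPM of CycB in replicates 1, 2, 3, 5 and 6, and early wild type 1257, 1188 and 1296 TPM.

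Other mitotic genes were lower by similar amounts. The activator of Aurora kinase bora was at 0.358 to 1.42 TPM in ORE50/ORC4 and 32.2 to 84 TPM in ORC4 (log2 fold change -5.86, adjusted p = 3.87e-05). The centrosomal kinase gene Nek2 was at 0.0721 to 0.961 TPM in ORE50/ORC4 and 13.4 to 28.9 TPM in ORC4 (log2 fold change -5.26, adjusted p = 7.66e-05). For borr, the Borealin subunit of the chromosomal passenger complex, the ranges were 1.69 to 10.5 TPM in ORE50/ORC4 and 78.1 to 185 TPM in ORC4 (log2 fold change -4.46, adjusted p = 7.23e-05). None of these ranges overlapped. For thr, which encodes separase, they were 1.85 to 4.45 TPM in ORE50/ORC4 and 39.9 to 96.9 TPM in ORC4 (log2 fold change -4.47, adjusted p = 3.20e-05), and for twe, the Cdc25 phosphatase of meiosis, 0 to 2.88 TPM in ORE50/ORC4 and 43.6 to 116 TPM in ORC4 (log2 fold change -6.23, adjusted p = 9.83e-05). Both thr and twe overlap another gene. Of 32 tested genes of DNA replication and the cell cycle, 16 were lower and 1 higher, with a median of -0.63. The plot of list members called in each direction sets these lists beside the others.

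Genes of the piRNA pathway, which silences transposons in the germ line, were lower too: 14 of 20 tested were lower and 0 higher, with a median log2 fold change of -0.96. Of the 20 genes 13 are early genes and 3 late genes. The Tudor-domain gene tej had 1.42, 1.89, 1.30 and 0.666 TPM in ORE50/ORC4, against 28.1, 50.04, 19.1 and 32.8 TPM in ORC4 (log2 fold change -4.47, SE 0.53, edgeR adjusted p = 0.000102). The helicase-related gene BoYb had 0.0511, 0.314, 0.132 and 0.291 TPM in ORE50/ORC4, against 4.70, 6.65, 2.67 and 4.55 TPM in ORC4 (log2 fold change -4.40, SE 0.51, edgeR adjusted p = 8.81e-05). The Piwi-family gene aub was at 1.54 to 3.21 TPM in ORE50/ORC4 and 10.2 to 22.1 TPM in ORC4 (log2 fold change -2.49, adjusted p = 0.000252). For all 3 genes the groups did not overlap. The nuage gene squ, which overlaps grp, had at most 0.0846 TPM in ORE50/ORC4 and 6.83 to 16 TPM in ORC4 (edgeR adjusted p = 7.23e-05), a value made uncertain by the overlap. Genes without an assigned name were also nearly at 0 in ORE50/ORC4. CG1503 had at most 0.0275 TPM in ORE50/ORC4 and 3.54 to 9.95 TPM in ORC4 (adjusted p = 0.000390), at least 14.6-fold lower. CG44005 had at most 0.108 TPM in ORE50/ORC4 and 13.3 to 31.2 TPM in ORC4 (adjusted p = 3.33e-05), at least 57.1-fold lower.

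The cellularization gene slam, a membrane-growth factor, was at 0.166 to 0.862 TPM in ORE50/ORC4 and 9.71 to 24.2 TPM in ORC4, against 612 to 720.4 TPM in early wild type (log2 fold change -4.89, adjusted p = 7.82e-05). The lipase gene dob was at 0 to 0.560 TPM in ORE50/ORC4 and 6.15 to 13.8 TPM in ORC4 (log2 fold change -4.96, adjusted p = 0.000108). Of 12 genes of the germ plasm and pole cells 5 were lower (41.7%) and 2 higher (16.7%), against 17.4% and 19.9% over all genes. The lower ones were CycB, osk, aub, piwi and vas. Leaving out single libraries (ORC4 replicate 2 or 4, ORE50/ORC4 replicate 1, 2 or 3) lowered the count of lower genes to 3, and the higher count was 1 in all but 1 of the 8 omissions. Between shallow and deep late wild type the median log2 difference was 0.78 for the segregation list, 0.60 for the piRNA list and 0.25 for the maternal list.

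Most genes for chromatin remodelers and associated chromatin factors were lower in ORE50/ORC4. Of 24 genes, 18 were lower and 1 higher, with a median log2 fold change of -0.77, and with depth class as a covariate 18 were lower and 0 higher. The lower genes include members of SWI/SNF-type complexes (brm, mor, osa, Bap60, Bap111, Bap170, Snr1, polybromo), ISWI-type complexes (Iswi, Acf, Chrac-14, E(bx)) and trithorax-group genes (ash1, ash2). Summed, the list held 747 ± 109 TPM in ORE50/ORC4 and 1306 ± 237 TPM in ORC4 (SD, n = 4 each), and 1014 ± 134 TPM in late wild type (n = 5).

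The gene polybromo, a subunit of the PBAP form of SWI/SNF, had 13.7, 21.9, 12 and 13.1 TPM in ORE50/ORC4, against 73.7, 116, 55.7 and 79 TPM in ORC4 (log2 fold change -2.29, SE 0.30, edgeR adjusted p = 0.000176). Chrac-14, a histone-fold subunit of CHRAC, had 20.1, 13, 11.3 and 16.9 TPM in ORE50/ORC4, against 77.4, 112, 53.1 and 77.2 TPM in ORC4 (log2 fold change -2.23, SE 0.30, edgeR adjusted p = 0.000194). Iswi, the ATPase of several remodelers and chosen after its values were seen, had 21.5, 32.8, 19.6 and 20.7 TPM in ORE50/ORC4, against 82.8, 123, 60.0 and 91.5 TPM in ORC4 (log2 fold change -1.78, SE 0.26, edgeR adjusted p = 0.000306). In each case all ORC4 libraries were higher, with replicate 2 highest and replicate 3 lowest, the order also seen for bcd, CycB and smg. The trithorax-group gene ash2 was at 4.00 to 6.57 TPM in ORE50/ORC4 and 16 to 31.4 TPM in ORC4 (log2 fold change -2.02, adjusted p = 0.000134). Nurf-38, the inorganic pyrophosphatase of NURF, was the exception at 141, 136, 130.4 and 144 TPM in ORE50/ORC4 and 107, 101, 113 and 111 TPM in ORC4 (log2 fold change 0.50, SE 0.09, edgeR adjusted p = 0.00139), a call lost with the depth covariate (adjusted p = 0.0986). Of the 24 genes 18 are early genes, and the part of the maternal RNA level in their difference was not tested.

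Factors that set and release paused RNA polymerase II, the process in the series title, were lower more often than higher. Of 24 tested 11 were lower (45.8%) and 2 higher, with a median log2 fold change of -0.40. Over all genes 17.4% were lower and 19.9% higher. Of the 24 genes 21 are early genes, a class in which 32.2% were lower. The largest polymerase subunit gene Polr2A had 23.6, 37.4, 21.7 and 27.2 TPM in ORE50/ORC4, against 61.4, 86.4, 52.6 and 69.8 TPM in ORC4 (log2 fold change -1.17, SE 0.18, edgeR adjusted p = 0.000465). The elongation factor gene Spt6 was at 30.5 to 51.1 TPM in ORE50/ORC4 and 70.9 to 121 TPM in ORC4 (log2 fold change -1.11, adjusted p = 0.00163). The groups did not overlap for either. The lower genes also included NELF-B of the pausing complex NELF, Cdk9, the kinase that releases pausing, M1BP, a factor of paused promoters, and Spt5. TH1 and Nelf-E, both of NELF, and Trl, which encodes GAGA factor, did not pass the test. TfIIS, which restarts stalled polymerase, had 65.3, 73.1, 57 and 59.1 TPM in ORE50/ORC4 and 54, 54, 51.8 and 59.6 TPM in ORC4, with 1 ORC4 library inside the ORE50/ORC4 range (log2 fold change 0.36, SE 0.06, edgeR adjusted p = 0.00100).

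Among other nuclear factors, the insulator gene Cp190 was at 49.9 to 67.7 TPM in ORE50/ORC4 and 118 to 202 TPM in ORC4 (log2 fold change -1.31, adjusted p = 0.000446). It was 1 of 4 lower (25%) and 1 higher (6.25%) of 16 BTB transcription factor genes, against 17.4% and 19.9% over all genes. The others lower were lola, pre-lola-G and psq. Of 19 Polycomb-group genes 4 were lower and 3 higher, near the shares over all genes. The lower ones included Caf1-55, a histone-binding subunit of several complexes, at 27.7 to 45.3 TPM in ORE50/ORC4 and 121 to 274 TPM in ORC4 (log2 fold change -2.23, adjusted p = 0.000176), and Sfmbt of the PhoRC complex (log2 fold change -1.59, adjusted p = 0.000691). Pc itself, the chromodomain subunit of PRC1, was slightly higher at 5.47 to 6.50 TPM in ORE50/ORC4 and 4.79 to 5.64 TPM in ORC4, ranges that overlapped (log2 fold change 0.39, adjusted p = 0.00408). Of 7 dosage compensation genes 3 were lower (42.9%) and 1 higher (14.3%). The lower ones were mof, msl-1 and msl-3, with log2 fold changes of -1.47, -1.43 and -0.61. The X chromosome as a whole held 18% lower and 15.7% higher genes, against 16% to 17.9% lower and 16.8% to 24% higher on the major autosomal arms. Of 9 apoptosis genes tested 2 were lower and 2 higher, near the shares over all genes, with a median log2 fold change of 0.26. The lower ones were the caspase genes Drice (log2 fold change -1.19, adjusted p = 0.00154) and Dronc (log2 fold change -0.96, adjusted p = 0.00148). Diap1 was among the higher (log2 fold change 0.26, edgeR adjusted p = 0.00123).

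**Figure D3:**
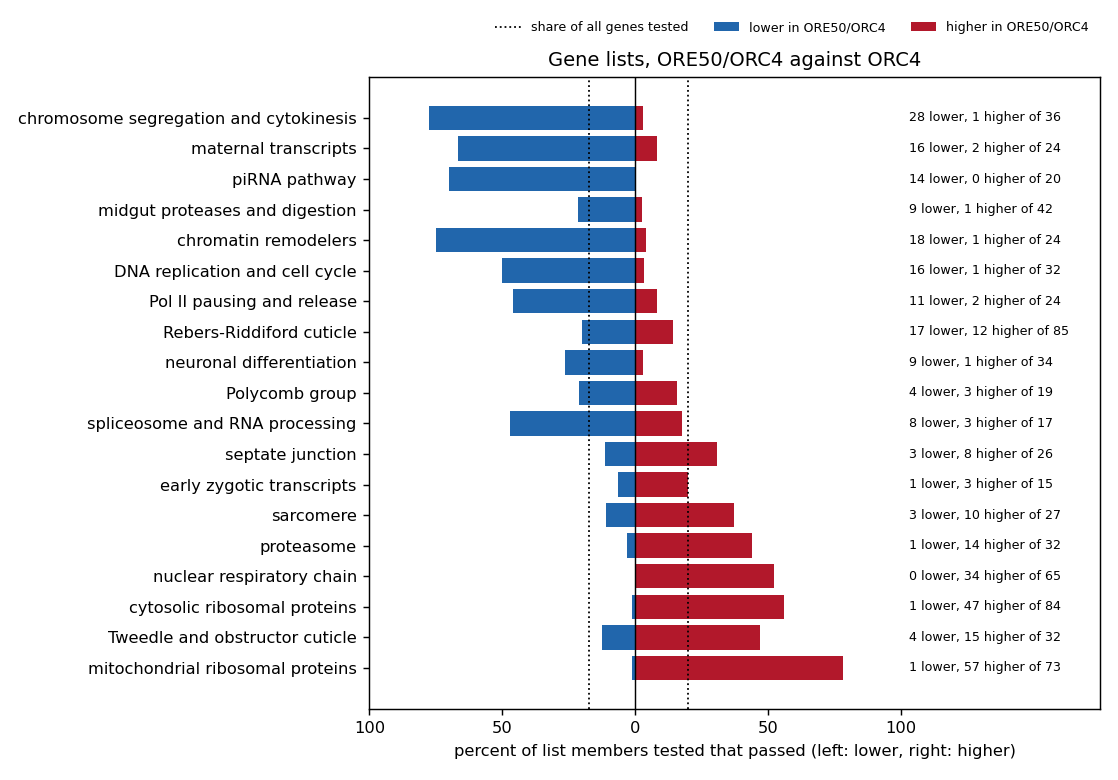
For each gene list, the bar to the left is the percentage of members tested that were lower in ORE50/ORC4 than in ORC4 and the bar to the right the percentage that were higher, ordered by median log2 fold change; dotted lines mark the shares over all genes, 17.4% lower and 19.9% higher. Lists of the dividing early embryo and of chromatin stand at the top with bars to the left, and ribosomal, respiratory and Tweedle lists at the bottom with bars to the right.

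Genes of protein synthesis and respiration were higher in ORE50/ORC4, by small amounts. Of 73 mitochondrial ribosomal protein genes tested, 57 were higher and 1 lower, with a median log2 fold change of 0.40, and of 84 cytosolic ribosomal protein genes 47 were higher and 1 lower, with a median of 0.27. Of 65 nuclear genes of the respiratory chain 34 were higher and 0 lower, with a median of 0.23, and of 32 proteasome genes 14 were higher and 1 lower, with a median of 0.20. Summed, mitochondrial ribosomal protein genes held 7382 ± 507 TPM in ORE50/ORC4 and 6265 ± 335 TPM in ORC4 (SD, n = 4 each), and the libraries did not overlap. Cytosolic ribosomal protein genes held 177029 to 199151 TPM in ORE50/ORC4 and 163855 to 177466 TPM in ORC4, with slight overlap.

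The small-subunit gene mRpS31 had 77.5, 77.7, 73.4 and 71.1 TPM in ORE50/ORC4, against 44.6, 42.8, 43.2 and 56.6 TPM in ORC4 (log2 fold change 0.83, SE 0.08, edgeR adjusted p = 3.25e-05). The gene mRpS6 had 105, 90.0, 101 and 99 TPM in ORE50/ORC4, against 59.7, 56.8, 60.6 and 63.2 TPM in ORC4 (log2 fold change 0.87, SE 0.10, edgeR adjusted p = 9.83e-05). Both were separated between the groups. Late wild type was above both mutants for mRpS31, at 91.2 to 107 TPM, and between them for mRpS6, at 64.3 to 75.9 TPM. The large-subunit gene RpL19 had 2389.7, 2438, 2420.3 and 2323 TPM in ORE50/ORC4, against 1714, 1733, 1806 and 1895 TPM in ORC4 (log2 fold change 0.57, SE 0.06, edgeR adjusted p = 5.67e-05). The stalk protein gene RpLP0 had 2750.1, 2684, 2622 and 2599 TPM in ORE50/ORC4, against 1880.3, 1854, 1997 and 2061 TPM in ORC4 (log2 fold change 0.60, SE 0.07, edgeR adjusted p = 8.80e-05). The exceptions that were lower were mRpS30 (log2 fold change -0.30, adjusted p = 0.00860) and RpL22 (log2 fold change -0.28, adjusted p = 0.0173), the call of RpL22 being lost without ORC4 replicate 2 and with the depth covariate. The complex I subunit gene ND-SGDH had 415, 384, 371 and 369 TPM in ORE50/ORC4, against 300.5, 285, 319 and 321 TPM in ORC4 (log2 fold change 0.48, SE 0.08, edgeR adjusted p = 0.000825). The proteasome gene Prosalpha7 had 94.6, 84.7, 79.6 and 81.1 TPM in ORE50/ORC4, against 63.3, 60.6, 61.7 and 79 TPM in ORC4 (log2 fold change 0.52, SE 0.09, edgeR adjusted p = 0.000813). For these 4 genes the groups did not overlap, though the ND-SGDH call was lost with the depth covariate (adjusted p = 0.0738).

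The size of these counts depended on the scale. On log2(TPM + 1) 32 mitochondrial ribosomal, 20 cytosolic ribosomal, 13 respiratory and 3 proteasome genes were higher, while the medians kept their sign. With depth class as a covariate 56 mitochondrial ribosomal, 34 cytosolic ribosomal, 17 respiratory and 13 proteasome genes were higher, and the respiratory count was 22 without ORC4 replicate 2. The mitochondrially encoded genes behaved differently. Of 12 tested 11 were higher in ORE50/ORC4, with a median of 0.63, but 0 were called once depth class was a covariate, and the shallow late wild type exceeded the deep one by 0.47. The complex I gene mt:ND1 had 4749 to 6206 TPM in ORE50/ORC4 and 2814 to 3439 TPM in ORC4, and late wild type had 3356 to 3533 TPM in its shallow libraries and 1735 to 2349 TPM in its deep ones.

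Gene length went with the sign of the difference. The median log2 fold change over all genes was 0.17 for exonic lengths under 1 kb, 0.12 from 1 to 2 kb, 0.02 from 2 to 4 kb, -0.08 from 4 to 8 kb and -0.16 above 8 kb. Within early genes it was 0.20 under 1 kb and -0.37 from 4 to 8 kb, and 51.8% of early genes of 4 to 8 kb were lower. Steady genes ran to 0.28 under 1 kb and -0.19 above 8 kb, and late genes to -0.01 and -0.12. The ribosomal, respiratory and proteasome lists have median exonic lengths of 790 to 1304 bases and the remodelers 5218 bases. At each length from 1 to 2 kb upward early genes were below steady and late genes. Between shallow and deep late wild type the median was -0.11 under 1 kb, of the opposite sign. The plot of medians by length shows these values. The part of length in the group differences was not tested.

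**Figure D4:**
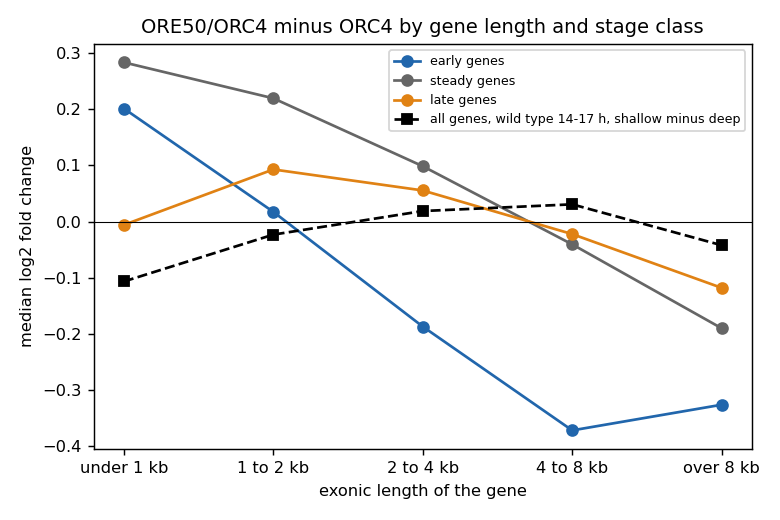
Median log2 fold change of ORE50/ORC4 minus ORC4 by exonic gene length for early, steady and late genes, with the median of shallow minus deep late wild type over all genes as a dashed line. The medians of early genes run to -0.37 at 4 to 8 kb, below the other classes from 1 kb upward, and the dashed line starts at -0.11 where the mutant lines start at or above -0.01.

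Late genes differed in both directions, and some cuticle genes were among those most increased in ORE50/ORC4. Of 32 Tweedle and obstructor genes tested, structural and chitin-binding proteins of the larval cuticle, 15 were higher and 4 lower, with a median log2 fold change of 0.34, and 7 were lower without ORC4 replicate 4. The summed list went the other way, at 31062 ± 3274 TPM in ORE50/ORC4 and 36183 ± 6292 TPM in ORC4 (SD, n = 4 each). The libraries overlapped in that sum. TwdlQ (FBgn0039448, chr3R:26692546-26693590, minus strand) had 259.9, 179, 155 and 156 TPM in ORE50/ORC4, against 49.5, 54.3, 49.1 and 72.6 TPM in ORC4 (log2 fold change 1.89, SE 0.20, edgeR adjusted p = 5.65e-05). TwdlW had 2024, 2376, 2243 and 2624 TPM in ORE50/ORC4, against 1276, 1075, 1379 and 1213 TPM in ORC4 (log2 fold change 1.06, SE 0.11, edgeR adjusted p = 6.22e-05). The groups did not overlap for either, and late wild type lay at 44.4 to 77.7 TPM for TwdlQ and 1271 to 1765 TPM for TwdlW. Gasp, a chitin-binding protein of the tracheal lumen, had 541, 540.4, 344 and 458 TPM in ORE50/ORC4, against 229, 237, 213 and 337 TPM in ORC4 (log2 fold change 1.04, SE 0.15, edgeR adjusted p = 0.000295). Here the gap was narrow, with ORC4 replicate 4 just below ORE50/ORC4 replicate 3. Of 25 tracheal and Osiris genes 7 were higher (28%) and 1 lower (4%), against 19.9% and 17.4% over all genes, and 4 were higher with the depth covariate.

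Genes with the Rebers-Riddiford chitin-binding motif were split. Of 85 tested 17 were lower (20%) and 12 higher (14.1%), with a median of -0.32. Over all genes 17.4% were lower and 19.9% higher, so the lower share was near that of all genes. Summed, the list held 43355 ± 10439 TPM in ORE50/ORC4 and 59812 ± 16213 TPM in ORC4 (SD, n = 4 each), and the libraries overlapped. Cpr66Cb had 311, 309.6, 220.2 and 271 TPM in ORE50/ORC4, against 164, 149, 151 and 215 TPM in ORC4 (log2 fold change 0.86, SE 0.13, edgeR adjusted p = 0.000348). Cpr60D went the other way, with 12.7, 11, 18.2 and 10.4 TPM in ORE50/ORC4, against 38.6, 41.5, 64 and 30.6 TPM in ORC4 (log2 fold change -1.60, SE 0.26, edgeR adjusted p = 0.000575). Neither pair of groups overlapped. Lcp65Ae was at 11.2 to 17.2 TPM in ORE50/ORC4 and 62 to 104 TPM in ORC4 (log2 fold change -2.28, adjusted p = 0.00207), and late wild type was at 263 to 278 TPM in deep and 64.7 to 84.6 TPM in shallow libraries, and the call was lost with the depth covariate (adjusted p = 0.207). The count of lower members was 6 without ORE50/ORC4 replicate 1 or ORC4 replicate 3, 7 without ORE50/ORC4 replicate 2 or ORC4 replicate 1, 10 without ORC4 replicate 2 and 26 without ORC4 replicate 4. It was 9 with the depth covariate. The plot of late genes by library includes Cpr66Cb. The count of higher members was 7 without ORC4 replicate 2 or ORE50/ORC4 replicate 4.

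**Figure D5:**
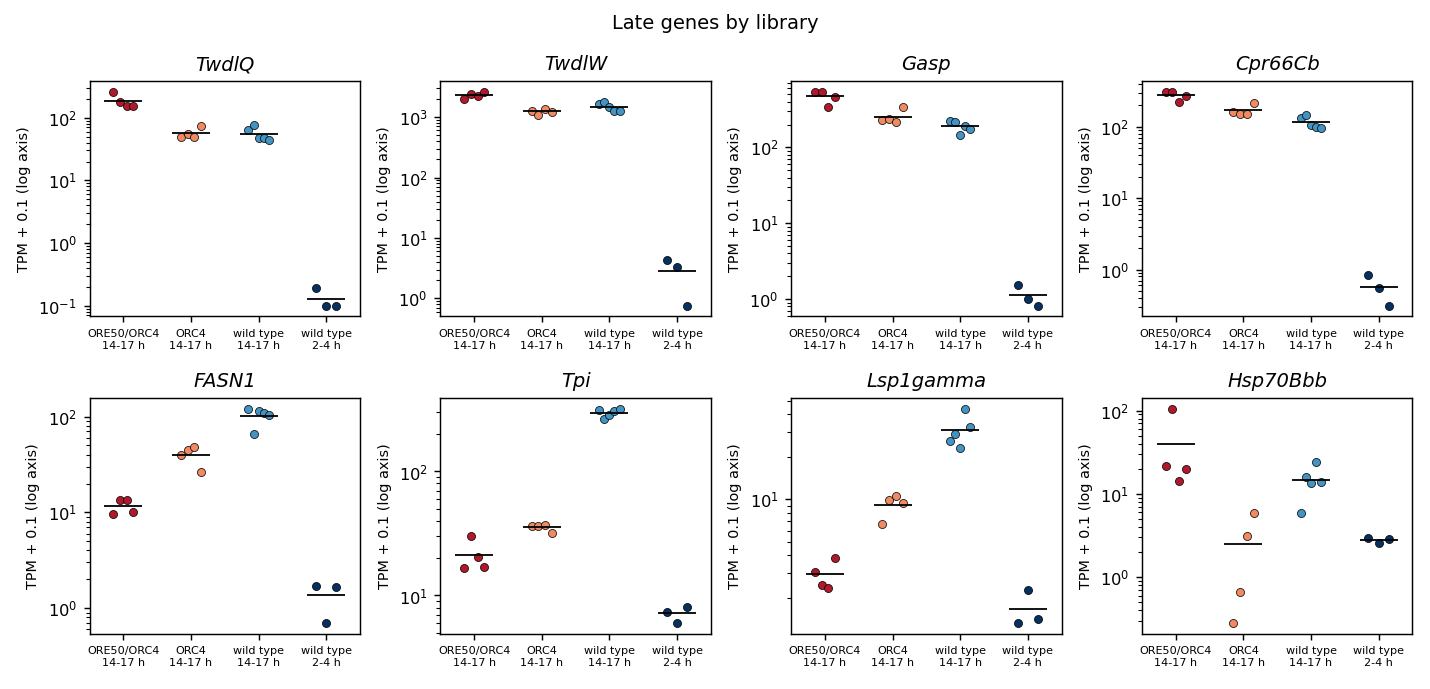
TPM + 0.1 per library on log axes for 8 genes that rise in late wild type, in ORE50/ORC4 (left), ORC4, late wild type and early wild type; short lines are group means. The 4 cuticle genes in the upper row are above ORC4 in every ORE50/ORC4 library, FASN1, Tpi and Lsp1gamma are below, and Hsp70Bbb is highest in ORE50/ORC4 replicate 2.

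The genes most increased in ORE50/ORC4 that met the rule for naming were a mixed set. CR32011, a noncoding gene on chromosome 4 (FBgn0052011, chr4:5829-11765, minus strand), had 4.47, 8.75, 2.85 and 7.95 TPM in ORE50/ORC4, and in ORC4 it was 0 in all libraries but replicate 2, at 0.160 TPM (edgeR adjusted p = 6.02e-05). Late wild type had 2.46 to 9.04 TPM. The cytochrome P450 gene Cyp309a2 had 12.1, 12.7, 14.5 and 12.7 TPM in ORE50/ORC4, against 4.59, 3.38, 5.16 and 4.17 TPM in ORC4 (log2 fold change 1.73, SE 0.16, edgeR adjusted p = 2.71e-05), both below late wild type at 22.2 to 34.7 TPM. MsrA, a methionine sulfoxide reductase, had 37.9, 39.7, 40.4 and 26.4 TPM in ORE50/ORC4, against 12.9, 13.8, 12.8 and 16.2 TPM in ORC4 (log2 fold change 1.53, SE 0.15, edgeR adjusted p = 4.08e-05). In these 3 genes no library of one group reached the other. The other genes named by the rule were CG31810 (1.55), CG18765 (1.5), CG34437 (1.42), lncRNA:CR44929 (1.37), CtsL2 (1.16), nur (1.12), Cyp6a16 (1.08), Cyp4ad1 (1.07), phu (1.0) and the lipase gene Lip1 (0.96), as log2 fold changes. CG18765 and Cyp4ad1 were near late wild type in ORE50/ORC4 and below it in ORC4, with log2 fold changes against wild type of -0.10 and -0.17 in ORE50/ORC4 and -1.60 and -1.24 in ORC4.

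Single genes of the fat body and of glycolysis were lower in ORE50/ORC4. FASN1, the fatty acid synthase of the fat body, had 9.42, 13.4, 13.5 and 10.1 TPM in ORE50/ORC4, against 39.2, 45, 47.7 and 26.4 TPM in ORC4 (log2 fold change -1.63, SE 0.23, edgeR adjusted p = 0.000265). Lsp1gamma, a larval storage protein, had 2.97, 2.38, 2.25 and 3.71 TPM in ORE50/ORC4, against 6.54, 9.70, 10.5 and 9.37 TPM in ORC4 (log2 fold change -1.52, SE 0.25, edgeR adjusted p = 0.000578). Both mutants were below late wild type, at 65.3 to 120.2 TPM for FASN1 and 22.9 to 43.5 TPM for Lsp1gamma. The glycolytic gene Tpi, triose phosphate isomerase, had 16.7, 29.9, 20.5 and 16.9 TPM in ORE50/ORC4, against 36.3, 36, 36.8 and 31.8 TPM in ORC4 (log2 fold change -0.61, SE 0.14, edgeR adjusted p = 0.00463), with 267 to 319 TPM in late wild type. Against the shared wild-type libraries the log2 fold change of Tpi was -3.76 in ORE50/ORC4 and -3.14 in ORC4, and that of PyK, pyruvate kinase, was -2.25 in ORE50/ORC4 and -1.53 in ORC4. As lists these genes were called about as often as all genes (37.3% in either direction), with 3 lower and 2 higher of 12 fat body genes and 3 lower and 1 higher of 12 glycolytic genes.

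Of 42 genes for midgut proteases and other digestive enzymes 9 were lower and 1 higher, the lower share being near the 17.4% over all genes, with a median of -0.84. The summed list held 991, 976, 1446 and 1252 TPM in ORE50/ORC4 replicates 1 to 4 and 2027, 1624, 2208 and 1067 TPM in ORC4. ORC4 replicate 4 lay inside the ORE50/ORC4 range. The lower members included the maltase gene Mal-A8, at 0.475 to 1.72 TPM in ORE50/ORC4 and 2.57 to 6.24 TPM in ORC4 (log2 fold change -2.21, adjusted p = 0.00166). Of 20 genes of the peritrophic matrix and mucins 4 were lower and 1 higher, again near that share, and 7 were lower without ORC4 replicate 4. Muc26B, a mucin, had 88.1, 111, 139 and 144 TPM in ORE50/ORC4, against 490.0, 389.5, 518 and 213 TPM in ORC4 (log2 fold change -1.60, SE 0.27, edgeR adjusted p = 0.000666).

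Markers of other tissues are read against the shares over all genes, 17.4% lower and 19.9% higher. Of 34 genes of neuronal differentiation 9 were lower and 1 higher, with a median of -0.18, but 3 were lower with the depth covariate and 5 without ORC4 replicate 1 or 3. The sodium channel gene para had 4.49, 9.23, 7.12 and 7.13 TPM in ORE50/ORC4, against 12.8, 11.5, 13.4 and 10.3 TPM in ORC4, and its call (log2 fold change -0.64, adjusted p = 0.0122) was among those lost with the covariate (adjusted p = 0.488). Of 27 sarcomere genes 10 were higher and 3 lower, with a median of 0.11 that turned to -0.04 on log2(TPM + 1). The troponin I gene wupA was at 478 to 544 TPM in ORE50/ORC4 and 368 to 423 TPM in ORC4 (log2 fold change 0.47, adjusted p = 0.00124), whereas the giant kinase gene Obsc was lower at 17.8 to 29.9 TPM in ORE50/ORC4 and 35.4 to 59.1 TPM in ORC4 (log2 fold change -0.69, adjusted p = 0.00971). Of 26 septate junction genes 8 were higher and 3 lower, among them cold with a log2 fold change of 0.88 and yrt with -0.70. The higher count was 5 without ORC4 replicate 2 or ORE50/ORC4 replicate 1 or 4, and the lower count 5 without ORE50/ORC4 replicate 2. Glia (0 lower, 3 higher of 13), hemocytes (4 lower, 3 higher of 19), axon guidance (3 lower, 4 higher of 22), Hox genes (0 lower, 1 higher of 8) and neuropeptides (1 lower, 3 higher of 23) are given as counts only.

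Of 22 heat shock genes tested 6 were higher in ORE50/ORC4 and 0 lower, against 19.9% higher over all genes. In that list 12 were higher without ORC4 replicate 4 and 1 with the depth covariate. Hsp70Bbb, an inducible chaperone gene, had 21.4, 105, 14.3 and 19.6 TPM in ORE50/ORC4, against 0.181, 0.563, 2.98 and 5.84 TPM in ORC4 (log2 fold change 4.17, SE 0.84, edgeR adjusted p = 0.00210). ORE50/ORC4 replicate 2 stood apart from its group, and ORC4 replicates 1 and 2 were near 0. Late wild type, at 5.80 to 23.7 TPM, overlapped both mutants, and the call was lost with the depth covariate (adjusted p = 0.0622). The Hsp70 genes are near-identical copies, between which the quantification may divide reads, as are the replication-dependent histone genes. Of 48 of those histone genes tested 13 were higher (27.1%) and 0 lower, and the higher count was 28 without ORE50/ORC4 replicate 4. On log2(TPM + 1) 9 were higher and 7 lower, so the direction of this list depended on the scale.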

How the data were processed

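Polyadenylated RNA of whole embryos was sequenced in 16 libraries. Per the file headers and the submitters' processing notes, the authors processed reads with CASAVA 1.8.2 and kallisto on the dm6 build and deposited 1 abundance file a library with estimated counts and TPM for 17753 genes. The deposited TPM values are scaled to listed lengths, and 99.3% of the 17625 genes matched to the annotation (99.28%) had a listed length equal to the whole gene span, introns included. No listed length of the 12564 genes with introns equalled the exonic length. Introns in the span lower the TPM of genes with long introns relative to other genes, not between libraries. Of the matched genes 47.6% overlap another gene, where kallisto divides reads.

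Estimated counts were rounded, filtered with filterByExpr at a minimum count of 10, TMM-scaled and tested with edgeR 4.0.16 (R 4.3.3), quasi-likelihood, over the 13 libraries aged 14 to 17 h, with Benjamini-Hochberg adjustment over 11431 genes. Stage classes were set by fitting the 8 wild-type libraries apart. Late wild type enters the estimate of spread as well as the stage classes. On simulated counts with 100 genes changed at each size, 86% of 2-fold and 98% of 4-fold changes of the ORE50/ORC4 against ORC4 comparison were recovered, and 5.15% of calls were false. The changed genes were drawn only from those above a minimum mean CPM, and no effect of depth class was simulated. These rates therefore need not hold for low genes or where depth coincides with genotype. Alternatives were limma 3.58.1 on log2(TPM + 1) and log2(TPM + 0.1), DESeq2 1.42.0, other scaling, filters and thresholds, thinning, depth class as a covariate, a replicate block and leaving out each library. No 2 libraries of a group were alike within sampling noise, with chi-square per degree of freedom of 9.2 to 118.

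The genes and gene lists were chosen with earlier results of these data known. Named genes were lola; the 8 highest and 8 lowest changes among called, non-overlapping genes with a mean of at least 100 counts in the higher group, library separation and a call with the depth covariate; the next 8 of each with a gene name; and up to 3 members of each list and stage class in each direction. The genes smg, gnu, osk, ftz, Mhc and Iswi, and the genes given only as members of a list, were chosen after their values were seen.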

Additional observations from a re-analysis of the deposited data

Results flagged for a closer look

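Among 383 sets of 4 or 5 libraries of 1 gene and group, 30 had a library whose gap to the nearest other was large for the range of the group (Dixon's test), where chance gives about 1 in 20. Of the 30, 18 were in ORE50/ORC4, and in 13 of these replicate 2 was the highest.

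ORE50/ORC4 replicate 2 was highest in genes of the maternal, segregation and piRNA lists. It had 1.48 TPM of bcd, 1.18 TPM of swa, 2.35 TPM of wisp, 1.35 TPM of gnu, 21.3 TPM of CycB, 12.2 TPM of CycB3, 4.45 TPM of thr and 2.88 TPM of twe. It had 32.8 TPM of Iswi, 21.9 TPM of polybromo and 0.108 TPM of CG44005. All of these except gnu were still below every ORC4 library. The same replicate had 105.0 TPM of Hsp70Bbb and 91.5 TPM of Hsp70Bc, both above every ORC4 library.

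Other ORE50/ORC4 libraries stood apart in fewer genes. Replicate 4 had 0.0846 TPM of squ and replicate 3 had 15.8 TPM of Dronc, each the highest of its group. Replicate 1 was lowest for Obsc at 17.8 TPM, replicate 3 for the proteasome ATPase gene Rpt1 at 85.6 TPM, and replicate 2 for the protease gene Jon65Aiii at 274.0 TPM.

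In ORC4, replicate 4 was highest for Pc at 5.64 TPM, Prosalpha7 at 79.0 TPM, mRpS31 at 56.6 TPM and the glial gene wrapper at 16.6 TPM, and lowest for Tpi at 31.8 TPM. ORC4 replicate 2 was the library with CR32011, at 0.16 TPM. In late wild type, replicate 2 was highest for osk at 20.6 TPM, exu at 7.40 TPM and CG4456 at 10.9 TPM and lowest for Cpr60D at 15.4 TPM. Replicate 3 was highest for RpL22 at 731 TPM and replicate 6 lowest for CG18765 at 32.7 TPM.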

How the results depend on the processing

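RLE scaling, DESeq2, the filter at a mean of 10 counts, no filter, mitochondrial genes left out, the fit of the 2 mutant groups alone and the depth covariate kept each count over all genes and stage classes within 1.5 times, and lola kept its call. Early genes were 1064 of 2132 lower genes with RLE scaling and 1085 of 2284 with DESeq2, no longer the majority. On log2(TPM + 1), 846 genes were higher in ORE50/ORC4, with 124 early, 299 steady and 390 late genes higher and 833 late genes lower; on log2(TPM + 0.1) the values were 830, 119, 299, 387 and 868. Thinning to the smallest total left 229 early genes higher. With a replicate block, 1225 were higher, with 176 early, 479 steady and 547 late. Same-number correlations were -0.08, 0.14, 0.37 and -0.11, and 1 of 4 ORE50/ORC4 libraries correlated best with its own number. The numbers thus gave no sign of pairing, which so few libraries cannot exclude and the labels do not state. At an adjusted p under 0.01, 1265 genes were lower and 1229 higher, with 177 early, 515 steady and 522 late higher and 269 steady and 191 late lower. With a 2-fold minimum, 797 were lower and 184 higher, as 494 and 34 early, 83 and 17 steady and 211 and 104 late genes, and lola, at -0.59, was not called. Without a fold minimum for stage, 745 early genes were higher and 138 steady lower and 271 higher; at 4-fold, 461 early were lower and 124 higher, and 1073 steady lower and 1429 higher. Leaving out 1 library gave 1563 to 2165 lower and 1680 to 2249 higher genes, 864 to 1049 early lower and 257 to 409 early higher, 320 to 448 steady lower and 680 to 949 steady higher, 314 to 771 late lower and 699 to 873 late higher, and -0.68 to -0.46 for lola. The cause of these shifts was not tested. Depth limits low genes more in ORE50/ORC4, where 3 counts are up to 0.332 CPM.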

Other observations

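Other genes named by the rule, all past the edgeR test, differed as follows in ORE50/ORC4 against ORC4, as log2 fold changes. The odorant-binding protein genes Obp83g and Obp56d were at 0.81 and -1.34, the fibroblast growth factor receptor gene htl at 0.71, the vacuolar ATPase accessory gene VhaAC45RP at 0.87, the glutathione transferase gene GstE1 at -0.90 and the ecdysone-response gene Eip75B at -1.05. GstE1 and Eip75B overlap other genes. The genes CG10597, CG33269 and Crys were lower, at -2.34, -2.26 and -2.22.

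By chromosome arm, the share of genes higher in ORE50/ORC4 was 24.0% on 2R, the arm that carries lola, and 22.9% on 2L, against 19.9% on 3L, 16.8% on 3R and 15.7% on X. The share lower was 16% on 2R, 17.2% on 2L, 17.9% on 3L, 17.9% on 3R and 18.0% on X. Over all genes 17.4% were lower and 19.9% higher. Of 17 spliceosome and RNA-processing genes tested, 16 of them early genes, 8 were lower (47.1%) and 3 higher (17.6%), with a median of -0.04. Of 14 dorsal-ventral patterning genes 2 were lower (14.3%) and 5 higher (35.7%), and the higher count fell to as few as 2 when 1 library was left out.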
